A study of Mus musculus with 24 samples.

Results

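The 39 genes described here encode the digestive enzymes of lysosomes, their membrane proteins, subunits of the proton pump that acidifies them, and the TFEB family of transcription factors. They were chosen by gene symbol, and all 39 were found among the 78298 gene IDs of the deposited count table and passed the filter on low counts. By role they were 10 peptidases, 9 glycan-degrading enzymes, 5 lipid-degrading enzymes and saposins, a group of 3 made of both acid phosphatases and granulin, 4 membrane proteins, 5 V-ATPase genes and 3 TFEB-family regulators. Messenger RNA was sequenced from the livers of 18 steatohepatitis model mice (model 1 to 18) and 6 normal control mice (control 1 to 6), with 1 library per mouse. Steatohepatitis is fatty liver with inflammation. The labels name liver as the tissue of all 24 and give no genotype, strain, sex, age, diet or duration and no account of how the model was produced. Nor do they tie a mouse to a litter, cage or day. The p-values set a difference between groups against the spread between these mice, part of which may be technical. They do not cover a litter, cage or day that differed between the groups, if any did. Library totals were 31.6 to 58.41 M counts. Levels are given as CPM, a library's counts divided by its size in M counts, on sizes scaled by TMM, a factor that aligns the bulk of genes between libraries, and 3 counts correspond to 0.0514 to 0.0949 CPM.

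Lysosomes are acidic organelles in which hydrolases degrade protein, glycans, lipid and whole organelles that reach them by endocytosis, phagocytosis or autophagy. The V-ATPase pumps protons across the lysosomal membrane, heavily glycosylated LAMP proteins line its inner face, and TFEB, TFE3 and MITF bind E-box motifs in the promoters of many lysosomal genes. In liver both hepatocytes, which take lipid droplets and plasma proteins into lysosomes, and macrophages, which take up dead cells and lipoproteins, are rich in these organelles.

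Promoter sequences show how the E-box that TFEB-family proteins bind is spread over the genes. Of the 39 genes, 33 had an entry in the RefSeq promoter table (build GRCm38.p6, 250 bases before to 50 after a start). The hexamer CACGTG, which reads the same on both strands, was present in 11 of these 33 (33.3%), against 8.09% of all 27025 genes in that table. The 8-base form TCACGTGA, which also reads the same on both strands and contains the hexamer, was present in 6 of 33 (18.2%), against 1.12% of all genes. The 11 were Ctsa, Ctsd, Ctsl, Lgmn, Gla, Glb1, Naglu, Lamp1, Mcoln1, Atp6v0d1 and Atp6v1a. In the comparison of model with control livers below, 6 of these 11 were higher, 2 were lower and 3 were not called; of all 33, 11 were higher, 9 lower and 13 not called. A match is a run of letters in a window, not a measured binding site. The 250 bases before the start are printed 5′ to 3′ for 5 genes, with each CACGTG in capitals. Lamp1 is shown for its 4 copies, Lgmn for its rise in model livers with 1 copy at this start and none at its other start in the table, Ctsd and Mcoln1 as a gene that rose and a gene that fell with 2 copies each, and Scarb2 as the gene with the lowest fold change, which has none in this window.
Lamp1 (chr8:13158911-13159160, plus strand): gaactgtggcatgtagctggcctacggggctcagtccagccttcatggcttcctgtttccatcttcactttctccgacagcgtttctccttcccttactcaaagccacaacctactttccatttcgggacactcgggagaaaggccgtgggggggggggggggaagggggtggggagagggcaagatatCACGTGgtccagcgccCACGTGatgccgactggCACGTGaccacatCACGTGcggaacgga
Lgmn (chr12:102439093-102439342, minus strand): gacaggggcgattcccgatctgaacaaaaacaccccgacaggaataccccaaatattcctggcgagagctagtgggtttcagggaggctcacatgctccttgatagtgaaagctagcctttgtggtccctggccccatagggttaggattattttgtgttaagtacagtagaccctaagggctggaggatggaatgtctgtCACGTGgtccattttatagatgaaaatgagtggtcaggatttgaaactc
Ctsd (chr7:142387828-142388077, minus strand): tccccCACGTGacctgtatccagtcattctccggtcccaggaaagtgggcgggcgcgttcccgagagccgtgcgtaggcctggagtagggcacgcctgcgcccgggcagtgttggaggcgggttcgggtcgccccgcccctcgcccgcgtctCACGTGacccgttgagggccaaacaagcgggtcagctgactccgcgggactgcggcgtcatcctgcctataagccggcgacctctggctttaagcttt
Mcoln1 (chr8:3500269-3500518, plus strand): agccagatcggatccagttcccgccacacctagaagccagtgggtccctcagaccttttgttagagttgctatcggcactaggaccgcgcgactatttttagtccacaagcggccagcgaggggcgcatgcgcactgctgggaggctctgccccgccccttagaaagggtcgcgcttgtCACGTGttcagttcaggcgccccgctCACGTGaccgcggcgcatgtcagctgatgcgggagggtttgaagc
Scarb2 (chr5:92505658-92505907, minus strand): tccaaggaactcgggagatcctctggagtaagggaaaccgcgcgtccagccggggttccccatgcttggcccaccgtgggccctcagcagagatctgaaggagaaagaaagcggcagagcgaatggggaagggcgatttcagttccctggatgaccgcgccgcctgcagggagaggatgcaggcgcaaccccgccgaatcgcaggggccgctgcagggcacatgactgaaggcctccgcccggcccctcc
The Lamp1 copies began 61, 45, 28 and 15 bases before the start, those of Mcoln1 71 and 45 bases before it. For V-ATPase genes called in opposite directions in the comparison below, 26 bases around the motif are given. The call of Atp6v0d1 depended on scaling and that of Atp6v1a on single controls.
Atp6v0d1 (chr8:105566052-105566077, minus strand): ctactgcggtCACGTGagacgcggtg
Atp6v1a (chr16:44139375-44139400, minus strand): ttttttaaatCACGTGataggcttaa
Both carry TCACGTGA, its hexamer 3 bases before the start in Atp6v0d1 and 131 bases before it in Atp6v1a.

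Lysosomal genes did not move as a block in model livers: 16 of the 39 were higher, 10 were lower and 13 were not called. A gene was called when the Benjamini-Hochberg adjusted p of edgeR's quasi-likelihood test was below 0.05, adjusted over all 17456 genes tested. By this rule 60.0% of all genes were called, 31.2% higher and 28.8% lower, so the 66.7% called among the lysosomal genes was near the background. Their median log2 fold change, model over control, was 0.09, and that of all genes was 0.01. Most changes were small, with 19 of the 26 called genes below a 1.5-fold change, and 3 genes reached a 2-fold rise: the V-ATPase subunit gene Atp6v0d2, the cathepsin gene Ctsk and the asparaginyl endopeptidase gene Lgmn. No gene fell 2-fold. At this size, 16.3% of all genes were higher and 3.44% lower. The model and control values did not overlap for 4 genes that were higher (Lgmn, Hexa, Gla and Ppt1) and for 3 that were lower (Ctsh, Smpd1 and Scarb2). Over all genes tested, 9.67% were higher without overlap and 6.02% lower. In bulk liver, a change in the number of cells of a type and a change in RNA per cell cannot be told apart. Summed over the 39 genes, the level ranged from 6568 to 8881 CPM in model livers and from 6610 to 8349 CPM in control livers, with 13 of the 18 model livers inside the control range, 4 above it and model 10 below it.

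**Figure D1:**
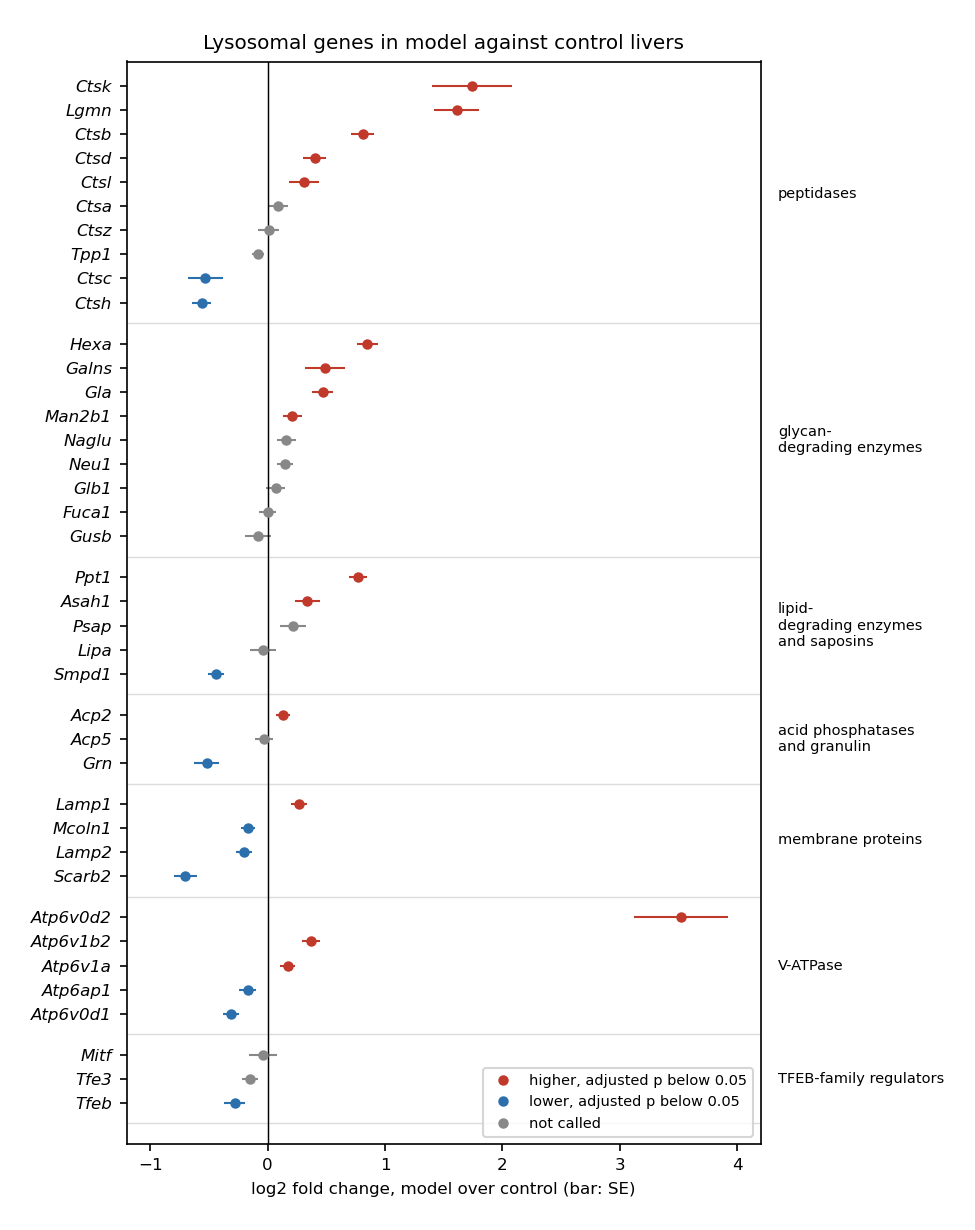
Log2 fold changes (model over control, x axis) of the 39 lysosomal genes, grouped by role down the page, with 1 SE as bars and colours for genes called higher, lower or not called. The rises of Atp6v0d2 (3.52), Ctsk (1.74) and Lgmn (1.61) stand apart, and the membrane protein genes lie mostly below 0.

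Peptidases held the strongest rises among the enzymes. Of 10, 5 were higher, 2 were lower and 3 were not called; the middle value was 0.20 on the log2 scale. Lgmn encodes legumain, which cuts after asparagine and matures cathepsins (ENSMUSG00000021190, chromosome 12, 102360343 to 102406072, minus strand, in GRCm39 as all gene positions given with values). It held 50.8, 108 and 167 CPM in the lowest, median and highest model liver, against 28.6, 36.4 and 46.1 CPM in control livers. Every model mouse lay above every control, a 3.06-fold rise (log2 fold change 1.61, SE 0.19, edgeR adjusted p = 6.18e-08). Ctsk (cathepsin K, the collagen-cutting protease of osteoclasts; ENSMUSG00000028111, chromosome 3, 95406567 to 95416673, plus strand) held 0.806, 2.23 and 4.59 CPM in model livers and 0.499, 0.709 and 1.06 CPM in control livers. It was low in all 24 livers, 17 of 18 model mice exceeded all controls, and the rise was 3.34-fold (log2 fold change 1.74, SE 0.34, edgeR adjusted p = 8.52e-05). Ctsh (cathepsin H, an aminopeptidase; ENSMUSG00000032359, chromosome 9, 89936205 to 89958142, plus strand) was the peptidase with the lowest fold change, at 228, 301 and 350.1 CPM in model livers and 382, 433 and 506 CPM in control livers. All 18 model mice lay below all 6 controls (1.48-fold lower, log2 fold change -0.56, SE 0.08, edgeR adjusted p = 1.04e-06).

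The other peptidases moved less than Lgmn and Ctsk. Ctsb, the gene of the abundant cysteine protease cathepsin B, held 590.5, 938 and 1163 CPM in model livers and 472, 513 and 649 CPM in control livers, and 17 of 18 model mice exceeded all controls (1.75-fold, edgeR adjusted p = 1.6e-07). Ctsd (cathepsin D, the main aspartic protease) averaged 301 ± 47.7 CPM in model livers and 228 ± 25.4 CPM in control livers (SD, n = 18 and 6), with log2 fold change 0.40, SE 0.10 and edgeR adjusted p = 0.00135; 1 model mouse lay below all controls and 14 above. Ctsl (cathepsin L, a cysteine protease) had a log2 fold change of 0.31 (edgeR adjusted p = 0.0396), a call that was lost without any 1 of 11 libraries, among them control 1 (0.23, adjusted p = 0.136), control 4 (0.27, adjusted p = 0.0999) and model 18 (0.28, adjusted p = 0.0595). Ctsc (cathepsin C, which activates granule proteases of immune cells) was lower (log2 fold change -0.53, SE 0.15, edgeR adjusted p = 0.00296), although 9 model mice overlapped the controls and the call was lost on library totals alone, without TMM scaling (-0.20, adjusted p = 0.252). Ctsa (0.09), Ctsz (0.01) and Tpp1 (-0.08), which encode a carboxypeptidase that also shields lysosomal sialidase, the carboxypeptidase cathepsin Z and a tripeptidase, did not pass. Exons of Ctsa overlap those of Pltp on the opposite strand, whose counts were 23.0% of those of Ctsa. Ctsz overlaps Nelfcd (8.85%) and Ctsb overlaps Fdft1 (8.37%) in the same way. Reads of such pairs cannot be told apart if counting ignored the strand.

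Of 9 glycan-degrading enzymes, 4 were higher, 5 were not called and 0 were lower. The 44.4% called was below the 60.0% of all genes, of which 31.2% were higher and 28.8% lower. With 9 genes, these counts are not read as a trait of the role. The list's median stood at 0.16 on the log2 scale. Hexa (the alpha subunit of beta-hexosaminidase, which trims gangliosides; ENSMUSG00000025232, chromosome 9, 59446823 to 59472392, plus strand) held 89.6, 107 and 151 CPM in model livers and 54.5, 61.8 and 74.6 CPM in control livers. The groups did not overlap, a 1.80-fold rise (log2 fold change 0.85, SE 0.09, edgeR adjusted p = 1.74e-08). Galns (a sulfatase for keratan sulfate) held 8.47, 11.8 and 19.6 CPM in model livers and 5.52, 9.62 and 12.4 CPM in control livers. Its groups overlapped in 10 of the 18 model mice (log2 fold change 0.49, SE 0.17, edgeR adjusted p = 0.0149), and the call was lost without control 1 (0.38, adjusted p = 0.0587). Gla (alpha-galactosidase A, which degrades globotriaosylceramide) rose 1.39-fold without overlap, averaging 8.13 ± 0.989 CPM in model livers and 5.87 ± 0.451 CPM in control livers (edgeR adjusted p = 3.75e-05). Man2b1 (lysosomal alpha-mannosidase) was called at a log2 fold change of 0.21 (edgeR adjusted p = 0.0205) with 17 of 18 model mice inside the control range, and the call was lost without control 1, control 3 or control 4 (0.17 each, largest adjusted p = 0.0764).

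The lowest fold change among the glycan-degrading enzymes was that of Gusb (beta-glucuronidase), with 36.0, 42.2 and 67.0 CPM in model livers and 37.4, 47.6 and 56.6 CPM in control livers. The groups overlapped and it did not pass (log2 fold change -0.08, SE 0.11, edgeR adjusted p = 0.536). Nor did Glb1 (beta-galactosidase, 0.07), Naglu (which acts on heparan sulfate, 0.16), Neu1 (sialidase, 0.15) or Fuca1 (fucosidase, 0.00). Naglu passed without control 5 (0.21, adjusted p = 0.046) and Neu1 without control 6 (0.22, adjusted p = 0.00715). Neu1 shares exon sequence with a gene on the opposite strand that had 33.0% as many counts.

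Genes for lipid breakdown moved in both directions: of 5, 2 were higher, 1 was lower and 2 were not called, and the median stood at 0.22 on the log2 scale. Ppt1 (which removes palmitate from proteins; ENSMUSG00000028657, chromosome 4, 122730035 to 122752968, plus strand) held 35.1, 48.7 and 56.5 CPM in model livers and 24.2, 28.2 and 34.5 CPM in control livers. The groups did not overlap (1.70-fold, log2 fold change 0.77, SE 0.08, edgeR adjusted p = 4.8e-09), but its exons overlap those of Cap1 on the opposite strand, which had 202.0% as many counts, and the strand setting of the counting is not known. Asah1 (acid ceramidase) held 26.4, 38.1 and 52.2 CPM in model livers and 27.4, 30.4 and 37.4 CPM in control livers. With 10 of 18 model mice above all controls, the rise was 1.26-fold (log2 fold change 0.34, SE 0.11, edgeR adjusted p = 0.00765). Smpd1 (acid sphingomyelinase, which makes ceramide from sphingomyelin; ENSMUSG00000037049, chromosome 7, 105203567 to 105207596, plus strand) held 37.6, 47.0 and 55.6 CPM in model livers and 58.1, 61.7 and 73.6 CPM in control livers. All 18 model mice lay below all controls (1.35-fold lower, log2 fold change -0.44, SE 0.07, edgeR adjusted p = 6.35e-06), while on library totals alone the log2 fold change was -0.11 and not called.

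Lipa, the gene of lysosomal acid lipase, which frees cholesterol and fatty acids from lipoproteins and droplets, averaged 298 ± 49.6 CPM in model livers and 306 ± 53.3 CPM in control livers (SD, n = 18 and 6) and did not pass (log2 fold change -0.04, SE 0.11, edgeR adjusted p = 0.777). Psap, the precursor of the saposins that present sphingolipids to their hydrolases, did not pass either (log2 fold change 0.22, SE 0.11, edgeR adjusted p = 0.0743). Psap passed without control 5, the highest control (0.31, adjusted p = 0.0125). Acid ceramidase and acid sphingomyelinase act on neighbouring steps of sphingolipid breakdown, and their genes had fold changes of opposite sign.

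Of both acid phosphatases and granulin, 1 was higher and 1 lower. Acp2 (lysosomal acid phosphatase) held 45.2, 52.1 and 58.9 CPM in model livers and 44.8, 46.7 and 50.1 CPM in control livers. The shift was small (log2 fold change 0.13, SE 0.06, edgeR adjusted p = 0.0443), 5 of 18 model mice lay within the control range, and the call was lost without any 1 of 14 libraries, with the largest adjusted p = 0.124 without control 6. Exons of Acp2 overlap those of Ddb2 on the opposite strand, which had 7.26% as many counts, and the strand setting of the counting is not known. Grn (progranulin, a secreted and lysosomal glycoprotein whose granulin fragments aid lysosomal function) held 195, 278 and 334 CPM in model livers and 308, 371 and 536 CPM in control livers. It was lower (log2 fold change -0.52, SE 0.11, edgeR adjusted p = 0.000176) with 15 of 18 model mice below all controls, and not called on library totals alone (-0.19, adjusted p = 0.164). Acp5 (tartrate-resistant acid phosphatase of osteoclasts and macrophages) did not pass (-0.03, edgeR adjusted p = 0.736).

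Of 4 membrane protein genes, 1 was higher and 3 were lower, beside 31.2% and 28.8% of all genes. The median of the 4 stood at -0.19 on the log2 scale. Lamp1 (a main glycoprotein of the lysosomal membrane; ENSMUSG00000031447, chromosome 8, 13209161 to 13225338, plus strand) held 769, 945 and 1049 CPM in model livers and 669.9, 772 and 889.9 CPM in control livers. It was 1.21-fold higher (log2 fold change 0.27, SE 0.07, edgeR adjusted p = 0.00103), with 5 of 18 model mice inside the control range. Scarb2 (LIMP-2, which carries glucocerebrosidase to lysosomes; ENSMUSG00000029426, chromosome 5, 92589173 to 92654692, minus strand) held 146, 213 and 262 CPM in model livers and 282, 325 and 379.8 CPM in control livers. No model mouse reached the lowest control, and the 1.63-fold lower level (log2 fold change -0.70, SE 0.10, edgeR adjusted p = 9.31e-07) was the lowest fold change of the 39 genes. Lamp2 (the second main LAMP glycoprotein and a receptor of chaperone-mediated autophagy) had a log2 fold change of -0.20 (edgeR adjusted p = 0.0173) and Mcoln1 (TRPML1, the calcium channel of lysosomes) of -0.17 (edgeR adjusted p = 0.0133). On library totals alone, where the median of all genes was 0.34, Lamp2 turned to 0.12 and was not called (adjusted p = 0.0785), and Mcoln1 turned to 0.16 and was called higher (adjusted p = 0.03).

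**Figure D2:**
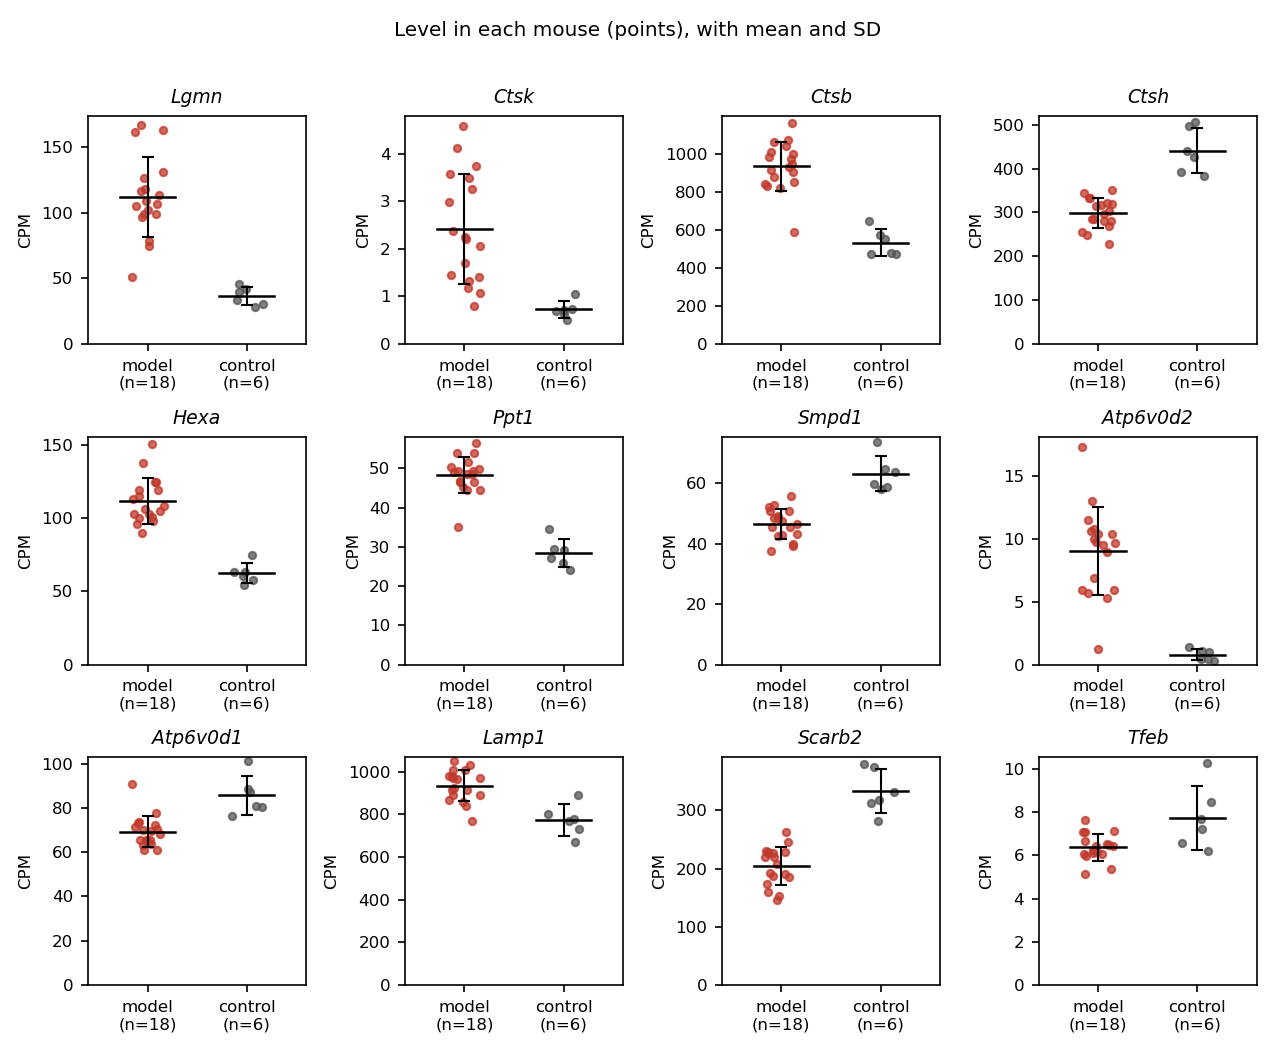
CPM (y axis, from 0) of 12 lysosomal genes in each liver, model mice left of control mice, with 1 point per mouse, a line at the group mean and bars of 1 SD. Lgmn, Hexa and Ppt1 lie higher in every model mouse than in any control, Ctsh, Smpd1 and Scarb2 lower, and the lowest model mouse of Atp6v0d2 (1.22 CPM) lies within the control range (0.294 to 1.42 CPM).

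The 5 V-ATPase genes were all called, 3 higher and 2 lower, and 1 of them had the largest change of the 39. Of all genes 60.0% were called, and of 15 other V-ATPase subunits tested 7 were (46.7%). The count of calls is therefore not read as a trait of the pump. Atp6v0d2 (the d2 isoform of the membrane sector, known from osteoclasts and macrophages; ENSMUSG00000028238, chromosome 4, 19876841 to 19922605, minus strand) held 1.22, 9.72 and 17.3 CPM in model livers and 0.294, 0.719 and 1.42 CPM in control livers. It was 11.5-fold higher (log2 fold change 3.52, SE 0.40, edgeR adjusted p = 5.62e-08), and 17 of 18 model mice exceeded all controls, the exception being model 10. Its widely expressed isoform gene Atp6v0d1 held 60.9, 68.9 and 90.8 CPM in model livers and 76.2, 84.2 and 101 CPM in control livers. It was lower (log2 fold change -0.31, SE 0.07, edgeR adjusted p = 0.000354), with 16 of 18 model mice below all controls, but 0.02 and not called on library totals alone. Per kilobase of exon, Atp6v0d1 averaged 38.7 CPM in model livers and 47.8 in control livers, and Atp6v0d2 averaged 3.33 in model livers and 0.286 in control livers, so the d1 gene remained the higher of the pair in both groups.

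Atp6v1b2 (the B2 subunit of the catalytic sector) held 57.1, 71.5 and 88.0 CPM in model livers and 51.2, 54.0 and 65.7 CPM in control livers. It was 1.29-fold higher (log2 fold change 0.37, SE 0.08, edgeR adjusted p = 0.000309), with 13 of 18 model mice above all controls. Atp6v1a, the catalytic A subunit gene, had a log2 fold change of 0.17 (edgeR adjusted p = 0.0228), a call lost without control 1 (0.15, adjusted p = 0.0588), control 2 (0.12, adjusted p = 0.0989) or control 5 (0.16, adjusted p = 0.0531). Atp6ap1, which encodes an accessory subunit, had -0.17 (edgeR adjusted p = 0.0317), was lost without control 5 (-0.13, adjusted p = 0.0932) or control 6 (-0.15, adjusted p = 0.0721), and turned to 0.17 on library totals alone.

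None of the TFEB-family genes was higher. Tfeb (ENSMUSG00000023990, chromosome 17, 48047955 to 48103344, plus strand), the regulator best known for lysosomal and autophagy genes, held 5.12, 6.34 and 7.66 CPM in model livers and 6.22, 7.46 and 10.3 CPM in control livers. The groups overlapped and the level was lower (log2 fold change -0.28, SE 0.09, edgeR adjusted p = 0.0075), a call lost without control 5 (-0.19, adjusted p = 0.0527), while on library totals alone the value turned to 0.05. Tfe3, its close relative, held 24.0, 27.3 and 34.7 CPM in model livers and 27.0, 30.5 and 36.9 CPM in control livers. It did not pass (log2 fold change -0.15, SE 0.07, edgeR adjusted p = 0.0611), but passed without any 1 of 6 libraries, the smallest adjusted p = 0.0191 without model 3. Mitf, which also drives pigment cell and osteoclast genes, held 3.22, 4.07 and 5.57 CPM in model livers and 3.28, 4.22 and 5.24 CPM in control livers. The groups overlapped and it did not pass (log2 fold change -0.04, SE 0.12, edgeR adjusted p = 0.762). These are transcript levels, and the activity of the factors, which depends on their phosphorylation and place in the cell, was not measured.

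Levels of different genes can be compared per length. Per kilobase of exon, Lamp1 (349 CPM), Psap (308 CPM) and Ctsz (237 CPM) were the highest of the 39 genes in model livers, and the values in control livers were 289, 265 and 236 CPM for the same genes. Mitf was lowest, with 0.668 CPM per kilobase in model livers and 0.689 in control livers, followed by Tfeb with 1.13 in model livers and 1.37 in control livers. The transcription factor genes and the osteoclast-associated Ctsk and Atp6v0d2 were all among the 7 lowest.

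The other lysosomal genes, described from lists drawn up around these 39, also went both ways. Of 24 other hydrolases, 13 were higher and 5 lower (median 0.23 on the log2 scale), led by Ctss (cathepsin S of antigen-presenting cells, 109.5 ± 41.0 CPM in model livers and 10.4 ± 4.25 in control livers, log2 fold change 3.39, SE 0.33), while Ctsf, a cathepsin gene, had the largest fall (-0.84, SE 0.13). Of 19 other membrane proteins and sorting receptors, 11 were higher and 4 lower, with a median of 0.19. Cd68, a macrophage glycoprotein of the LAMP family, rose most (29.9 ± 11.9 CPM in model livers and 2.31 ± 0.869 in control livers, 3.69, SE 0.36), before Cd63, a tetraspanin (3.08, SE 0.49), and Sort1, a sorting receptor, fell most (-0.49, SE 0.15). Of 15 tested among 18 other V-ATPase subunits, 3 were higher and 4 lower, with a median of -0.11. The extremes were Atp6v0e2 (1.30, SE 0.33), Atp6v1g2 (0.52, SE 0.15) and Atp6v0b (-0.44, SE 0.13). The list of autophagy and lysosomal signalling genes, 20 of 21 tested, leaned to the lower side: 11 fell and 7 rose. Of all genes, 28.8% fell and 31.2% rose by the same rule. The middle value of the list was -0.25 on the log2 scale with TMM factors. Library totals alone moved the median over all genes to 0.34, so this lean may depend on the scaling. Rragd (a GTPase that links amino acids to mTORC1) rose to 10.2 ± 7.58 CPM in model livers, against 1.77 ± 0.782 in control livers (2.54, SE 0.60), Fnip2, which binds folliculin, by 0.62 (SE 0.11), and Wipi1, an autophagosome protein, fell by 0.81 (log2 fold change -0.81, SE 0.08). All 11 of these named changes passed edgeR's test, the largest adjusted p = 0.00603 being that of Sort1.

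Macrophage marker genes were higher in model livers and hepatocyte marker genes mostly lower. All 17 macrophage markers, none of them among the 39 genes, were higher (median 2.94 on the log2 scale), and their summed level was 303 to 1333 CPM in model livers and 61.5 to 149 CPM in control livers. The highest per kilobase was Lyz2, with a log2 fold change of 3.94. Of 8 lipid-associated macrophage markers 7 were higher (summed 100.4 to 835 CPM in model livers and 72.0 to 114 in control livers; highest per kilobase Spp1, 1.96). Of 7 Kupffer cell markers 4 were higher and 1 lower (187 to 578 CPM in model livers and 41.8 to 112 in control livers; Cd5l, 3.12), and of 9 hepatocyte markers tested 8 were lower (58735 to 117889 CPM in model livers and 123295 to 185886 in control livers; Alb, -0.88). Smaller marker lists were mostly higher too: all 7 for stellate cells (Dcn, 1.26), 5 of 7 for endothelium (Clec4g, 0.88), 6 of 7 for T and NK cells (Nkg7, 1.52), 4 of 5 for B and plasma cells (Jchain, 0.17, not called), 4 of 5 for neutrophils (S100a9, 1.83) and 1 of 5 for cholangiocytes (Epcam, 0.96, not called). No marker in the table was at 0 in every control. Their part in the differences between model and control livers was not tested.

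Within the 18 model mice, macrophage marker RNA varied, so that lysosomal genes could be set against it without the controls. The macrophage index, the mean log2 CPM of the 17 markers, ran from 3.08 in model 10 to 5.23 in model 15, with a median of 4.42 and an SD of 0.57. Apart from a gap of 0.64 above model 10, neighbours differed by at most 0.30, so the mice formed no separate clusters along this index. Whether they form sets by other genes was not tested. For each gene a slope per SD of the index was fitted with edgeR's quasi-likelihood test over the 18 model libraries, adjusted over 15307 genes. Of the 39 lysosomal genes, 11 had a positive slope, 2 a negative one and 26 were not called. Over all genes, 19.9% had a called slope, 12.1% a positive and 7.86% a negative one. The median slope was 0.07 for the lysosomal genes and -0.01 for all genes.

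The genes that followed the index most closely were peptidases and a ceramidase. Lgmn had a slope of 0.38 (SE 0.04, adjusted p = 8.67e-07), with Pearson's r = 0.92 and Spearman's rho = 0.83 over 18 mice (permutation p = 1e-05, the smallest that 100000 resamples give, and 2e-05), and r = 0.85 without model 10 and model 15, the mice farthest from the median. Asah1 had a slope of 0.22 (SE 0.03, adjusted p = 4.49e-06), with r = 0.92, rho = 0.91 (permutation p = 1e-05 each) and r = 0.86 without these 2 mice. Ctsk had the steepest slope, 0.66 (SE 0.08, adjusted p = 6.12e-06), with r = 0.88, rho = 0.90 (permutation p = 1e-05 each) and r = 0.82 without them. Adjusted over all genes, the permutation p of r was 0.000386 for each of the 3. Model mice with more macrophage marker RNA had more of these 3 transcripts.

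Ctsd and Ctsb followed next. Ctsd had a slope of 0.19 (SE 0.04, adjusted p = 0.000672) and r = 0.82 (rho = 0.79; 0.74 without the 2 mice; permutation p = 6e-05, adjusted 0.00127). Ctsb had a slope of 0.17 (SE 0.04, adjusted p = 0.00198) and r = 0.80 (rho = 0.70; 0.66 without the 2 mice; permutation p = 9e-05, adjusted 0.00174), and its slope was not called without model 10 (0.10, adjusted p = 0.0537). Among glycan-degrading enzymes 4 slopes were positive. That of Galns was 0.27 (SE 0.06, adjusted p = 0.002) and that of Gla 0.13 (SE 0.03, adjusted p = 0.00747). Gusb had 0.15 (SE 0.04, adjusted p = 0.0097) and Hexa 0.11 (SE 0.04, adjusted p = 0.0416), the call of Hexa being lost without any 1 of 9 mice, with the largest adjusted p = 0.173 without model 10. Gusb and Mitf, with a slope of 0.15 (SE 0.05, adjusted p = 0.0365), did not differ between the groups by the test above but rose with the index, and the Mitf slope was lost without any 1 of 7 mice, with the largest adjusted p = 0.0755 without model 16.

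Atp6v0d2, the gene with the largest rise, followed the index less tightly. Its slope was 0.46 (SE 0.13, adjusted p = 0.0170) with r = 0.73 and rho = 0.55 (permutation p = 0.00108 and 0.02; adjusted over all genes 0.0103 and 0.0815). Without model 10 the slope was 0.23 (adjusted p = 0.098), the one loss of the call when each of the 18 mice was left out in turn, so the call rests on model 10. Without model 10 and model 15 the slope was 0.22 (adjusted p = 0.144) and r was 0.50. Among negative slopes, that of Ctsh was -0.11 (SE 0.03, adjusted p = 0.0311), with r = -0.64 and rho = -0.74 (permutation p = 0.00422 for r, adjusted 0.0276). That of Lamp2 was -0.10 (SE 0.03, adjusted p = 0.0359), with r = -0.66 and rho = -0.79 (permutation p = 0.00258 for r, adjusted 0.0194). Without model 10 and model 15, r was -0.60 for Ctsh and -0.63 for Lamp2. Both were near the threshold: the call of Ctsh was lost without any 1 of 10 mice (largest adjusted p = 0.0799, without model 12) and that of Lamp2 without any 1 of 11 (largest adjusted p = 0.0871, without model 12). Lamp1 (0.01), Lipa (-0.01), Neu1 (-0.00) and Atp6v0d1 (-0.00) had slopes at or next to 0 and were not called.

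**Figure D3:**
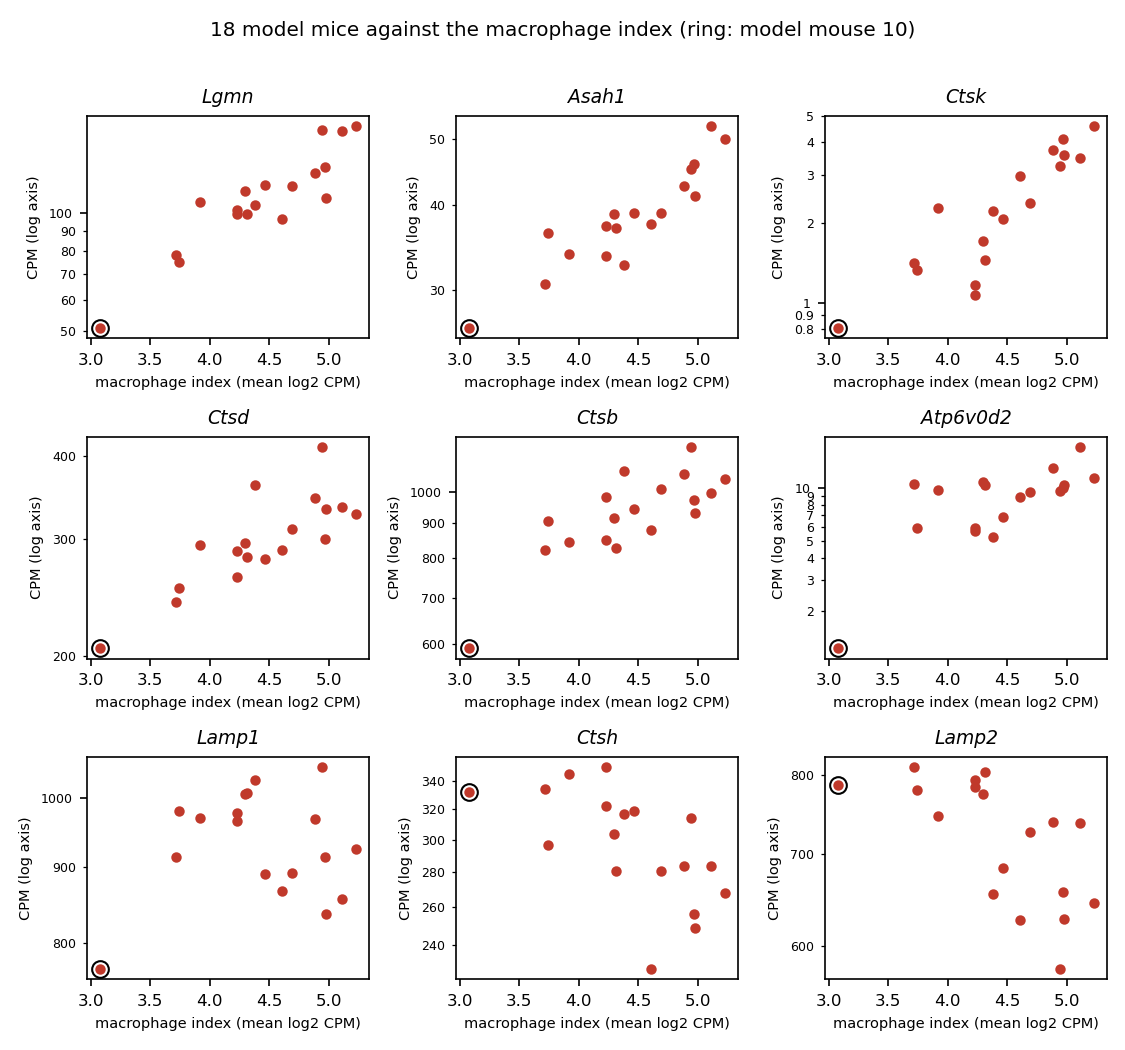
CPM of 9 lysosomal genes (y axis, log scale) against the macrophage index (mean log2 CPM of 17 markers, x axis) in the 18 model mice, with 1 point per mouse and a ring around model 10. Lgmn (r = 0.92), Asah1 (r = 0.92) and Ctsk (r = 0.88) rise along the axis, Lamp1 is level, and Ctsh (r = -0.64) and Lamp2 (r = -0.66) decline.

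Set beside the difference between groups, 9 of the 16 genes that were higher in model livers had a positive slope within model mice (Ctsb, Ctsd, Ctsk, Lgmn, Hexa, Gla, Galns, Asah1 and Atp6v0d2), and 2 of the 10 that were lower had a negative one (Ctsh and Lamp2). No gene called in both had a difference and a slope of opposite sign. Over all genes, 12.1% had a positive and 7.86% a negative slope. The same count of calls by slopes was not made over all genes. The agreement is therefore not read as a trait of the lysosomal genes. The remaining 7 higher genes, among them Ppt1 and Lamp1, and the remaining 8 lower ones, among them Scarb2, Smpd1 and Grn, were not called for the slope. Nearest to the threshold of these were Scarb2, with a slope of -0.13 (SE 0.05, adjusted p = 0.0543), and Ppt1, with 0.08 (SE 0.03, adjusted p = 0.0563). The control livers are no part of the slopes. The index itself ran with that of the lipid-associated macrophage markers over the 18 mice (r = 0.93, rho = 0.93, permutation p = 1e-05 each, adjusted over 4 relations 4e-05; r = 0.89 without 2 mice) and against that of hepatocyte markers (r = -0.78, permutation p = 8e-05, adjusted 0.00016; rho = -0.77, permutation p = 0.0002; r = -0.75 without 2 mice). The Kupffer cell index, a mean over genes that went both ways, had no relation to it that passed (r = 0.01, rho = 0.10, permutation p = 0.957 and 0.692; r = 0.05 without 2 mice). Of its 7 genes, Cd5l (slope 0.43, adjusted p = 0.000545) and Vsig4 (0.42, adjusted p = 0.00248) were positive, Cd163 was negative (-0.72, adjusted p = 0.0241) and 4 were not called. Markers of other cell types also rose with the macrophage index: slopes were positive for 4 of 4 cholangiocyte markers tested (median 0.73), 3 of 3 of neutrophils (0.38), 4 of 6 of T and NK cells (0.42), 1 of 5 of B and plasma cells (0.24) and 1 of 7 of stellate cells (0.02; Pdgfrb, slope 0.41, r = 0.95), and for 0 of 7 of endothelium (-0.11). Their part in the slopes of the lysosomal genes was not tested. With the Kupffer cell markers in place of the macrophage markers, no lysosomal gene had a called slope, and 7 of all genes had a positive one.

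**Figure D4:**
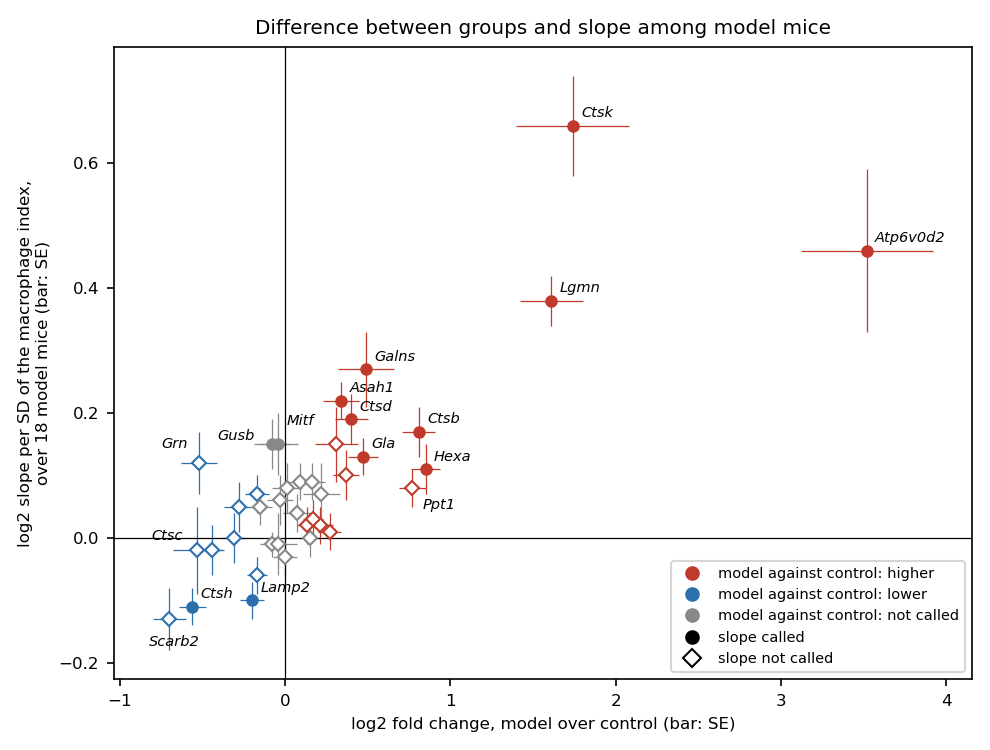
Slope on the macrophage index within the 18 model mice (log2 per SD, y axis) against the log2 fold change of model over control livers (x axis) for the 39 lysosomal genes, 1 point each. Bars are 1 SE, filled circles mark called slopes and colour the call between groups. Atp6v0d2, Ctsk and Lgmn lie at the upper right, and Scarb2 (-0.70) and Ctsh (-0.56) lie at the left below a slope of 0.

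Model mice differed among themselves in how many lysosomal genes were at an extreme. Model 10, with the lowest macrophage index, had the lowest level of the 18 mice for 18 of the 39 genes and was among the lowest 3 for 27. Model 2, with an index of 4.94, had the highest level for 15 genes and was among the highest 3 for 27, and model 3, with an index of 4.38, had the highest for 9. The spread over model mice was widest for Atp6v0d2, whose highest level was 14.1 times its lowest, followed by Ctsk (5.70) and Lgmn (3.29), and was narrowest for Acp2 (1.30).

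**Figure D5:**
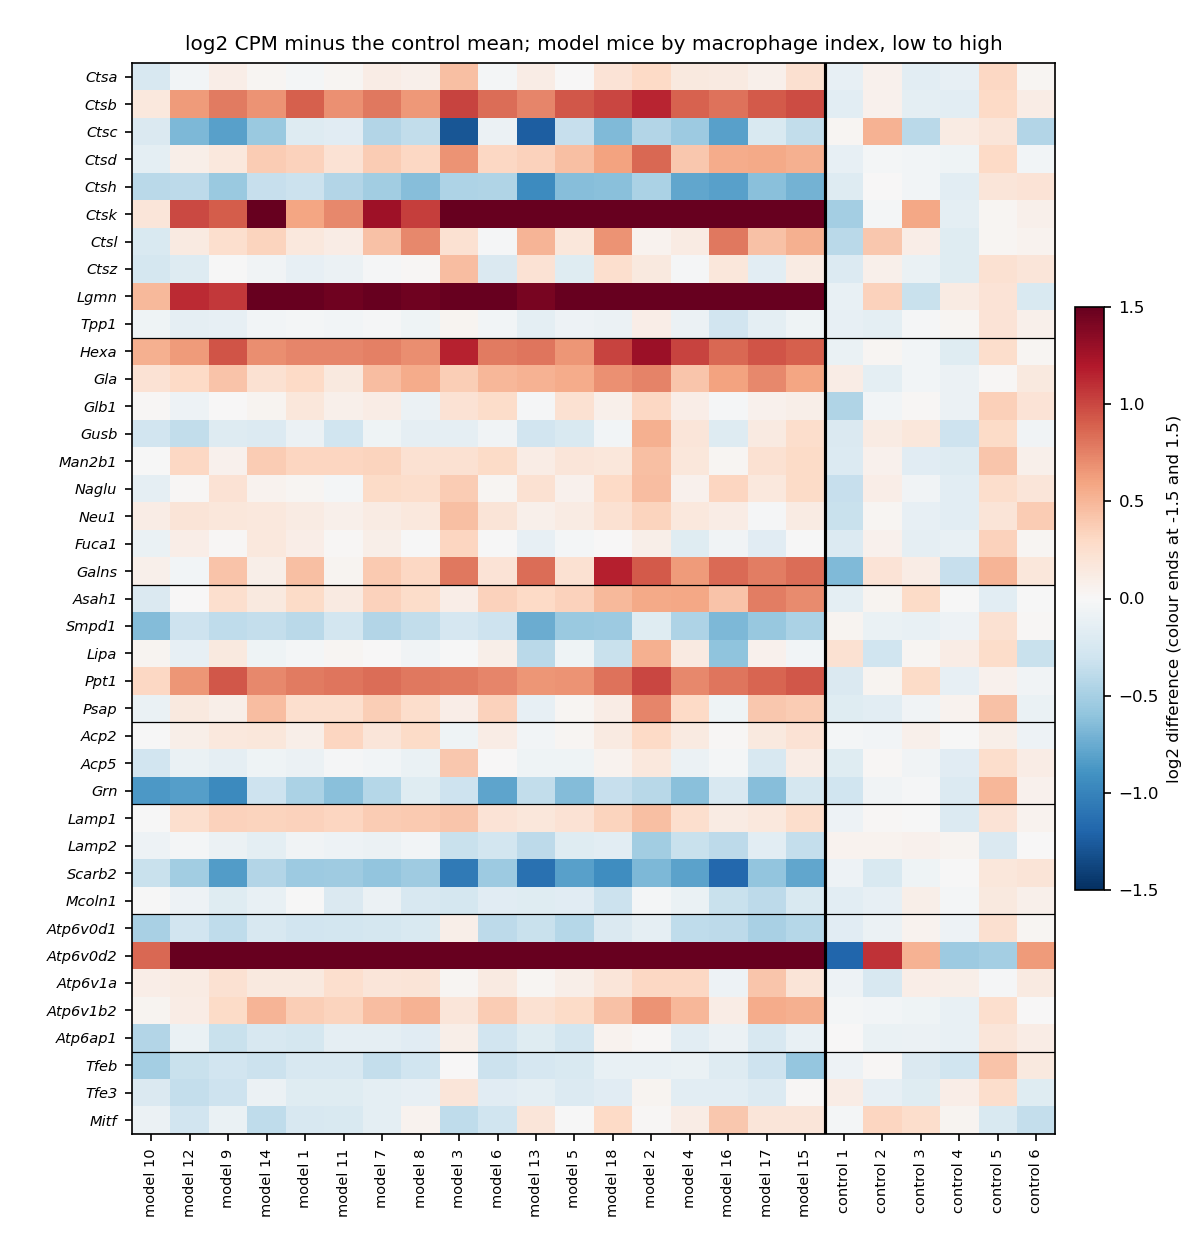
Level of each of the 39 lysosomal genes (rows, by role) in each liver (columns, model mice by rising macrophage index, then control mice), as log2 CPM minus the gene's mean over control livers, red for higher and blue for lower, with colour ending at differences of 1.5. Atp6v0d2, Ctsk and Lgmn are red in nearly all model livers and palest in model 10, and Scarb2, Ctsh and Smpd1 are blue.

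The time of day at death can move liver transcripts, and genes of the circadian clock separated all controls but 1 from the model mice. A clock index (evening-phase minus morning-phase genes, mean log2 CPM) was 2.62 to 3.71 in model livers and -1.19 to 3.76 in control livers, where control 6 alone, at 3.76, stood with the model mice. With this index as a covariate, 12 of the 26 calls remained: Ctsb, Lgmn, Hexa, Ppt1 and Atp6v0d2 were higher and 7 genes lower. All 26 kept their sign, and 38.9% of all genes were called in that fit. The index largely followed the groups, so a lost call can come with a larger SE as well as a smaller difference. Ctsd went from 0.40 (SE 0.10) to 0.33 (SE 0.18) and Lamp1 from 0.27 (SE 0.07) to 0.20 (SE 0.11). Ctsc went from -0.53 (SE 0.15) to -0.06 (SE 0.23). The calls of Ctsk (1.47), Ctsd (0.33), Gla (0.36), Asah1 (0.27), Galns (0.15), Ctsl (0.25), Man2b1 (0.14), Acp2 (0.17), Lamp1 (0.20), Atp6v1a (0.06) and Atp6v1b2 (0.34) among the higher genes, and of Ctsc (-0.06), Lamp2 (-0.15) and Atp6ap1 (-0.26) among the lower ones, were lost. With control 6 as the only control, a choice made after the data were seen, the single control was assumed to vary like the model mice, and 8 calls were made, all of them among the 26. Without control 6, 14 calls of higher and 9 of lower genes remained, and those of Ctsl, Acp2 and Atp6ap1 were lost. Whether the time of death differed between the groups is not given in the labels and was not tested.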

How the data were processed

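The series holds 1 table of raw read counts per Ensembl gene from 24 livers, deposited by the authors. Per the file headers it also has exon positions, strand and summed exon length in bases, whose unit is another than the counts and which served to give levels per kilobase. Trizol-extracted RNA was, per the labels' protocols, captured with oligo(dT), and libraries were sequenced as DNA nanoballs. Per the submitters' processing notes the build was GRCm39. Neither aligner, counter nor strand setting is named: they are not given in the sources used, so reads of overlapping genes may be counted for either partner.

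Of 78298 gene IDs, 51498 could be given a symbol from a table of gene names (99.6% of counts), and for 58 symbols shared by several IDs the ID with most counts was used. Gene positions are those of the deposited table, first to last exon, 1-based. No value column was left unmapped. In 168 pairs of libraries within groups the chi-square over genes was at least 22.0 per degree of freedom, so no 2 libraries were alike within sampling noise. The sources name no molecular identifiers, and the level that 3 counts stand for covers counting error only.

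Model and control libraries were compared with edgeR 4.0.16 in R 4.3.3 (quasi-likelihood F test with TMM factors, robust dispersion and filterByExpr by group). A gene was called when its p, adjusted by Benjamini-Hochberg over all genes tested, was below 0.05. An SE is the size of the log2 fold change over the root of its F. Within model mice the same test was run on the macrophage index, scaled to 1 SD, leaving out the 17 marker genes. Two-sided permutation tests with 100000 resamples gave p-values for Pearson and Spearman correlations, adjusted over all genes. Scripts were tested on simulated data with known changes. Correlations and promoter searches ran in Python 3.11.15 with scipy 1.17.1, pandas 2.3.3 and numpy 2.4.6, and figures were drawn with matplotlib 3.10.9.

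Per role, the members with the 2 largest rises and the lowest fold change, the TFEB family and Lamp1 are given as lowest, median and highest value. For Ctsb the same values, and for other genes means with SD, were added after their values were seen. Of other lysosomal lists the 2 called genes with the largest rise and the called gene with the largest fall are named, and of each marker list the member highest per kilobase; 1 gene so chosen is not reported here. The genes, lists and markers were chosen with earlier results of these data known. Alternatives were library totals alone, upper-quartile or RLE factors, limma-voom (limma 3.58.1), DESeq2 1.42.0, other expression filters, a threshold of 0.01, a clock covariate, the replicate number as a block, other macrophage indices and each library left out in turn. Protein sequences were not used here.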

Additional observations from a re-analysis of the deposited data

Results flagged for a closer look

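In each of the 51 quantities checked over the 6 control livers, the level of every lysosomal gene, the summed levels of the gene lists and the clock index, the highest and lowest mouse were compared with the rest of the group. In 4 genes 1 control lay far from the others, and in all 4 it was control 5. For Ctsd, control 5 was highest with 279 CPM, the others holding 209 to 222 CPM. For Psap, control 5 was highest with 972 CPM, the others holding 633 to 744 CPM. For Atp6v1b2, control 5 was highest with 65.7 CPM, the others holding 51.2 to 55.4 CPM. For Lamp2, control 5 was lowest with 708 CPM, the others holding 831 to 865 CPM. Chance alone marks about 1 in 20 groups in such a check, and the quantities are not independent. In the direction of the model livers stood the values of Ctsd, Psap, Atp6v1b2 and Lamp2 in control 5, and without it the Psap rise passed edgeR's test (0.31, adjusted p = 0.0125), while the calls of the other 3 were kept. Control 5 also had the highest summed level of the lysosomal genes among controls, 8349 CPM, before control 2 with 7470 CPM. It was the highest control for further genes, such as Lamp1, Hexa and Man2b1, though not for all, such as Lgmn. For such genes, counts of model mice above all controls or inside the control range rest on this 1 mouse.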

How the results depend on the processing

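Limits come first from scaling. Library totals alone, in place of TMM factors, moved the median over all genes to 0.34 (log2) and the share of called genes that were higher to 85.8%, against 52.0% with TMM; called higher and lower were then 9406 and 1562 of all genes and 27 and 2 of the lysosomal genes. Signs turned for 8 genes, all to values below that shifted median: Tpp1 (0.25), Lipa (0.29) and Acp5 (0.30), not called with TMM, were then called higher, Mcoln1 (0.16) was called lower with TMM and then higher, and Lamp2 (0.12), Atp6v0d1 (0.02), Atp6ap1 (0.17) and Tfeb (0.05) were called lower with TMM and then not called. Calls of Ctsc (-0.20), Smpd1 (-0.11) and Grn (-0.19) were lost. Upper-quartile factors moved the median over all genes to 0.11. They gave 6289 higher and 3733 lower of all genes, and 20 and 6 of the lysosomal genes. Lamp2 (-0.11), Mcoln1 (-0.08), Atp6ap1 (-0.07) and Tfeb (-0.18) were then no longer called lower. With the clock covariate 3057 of all genes were lower and 5 lysosomal genes higher, and with control 6 as the only control, chosen after the data were seen and assumed to vary like the model mice, 2588 and 1899 of all genes and 5 and 3 lysosomal genes were higher and lower; the cause was not tested beyond the smaller number of controls. RLE factors, DESeq2 and limma-voom gave 15, 15 and 16 higher and 11, 11 and 10 lower lysosomal genes. Leaving out 1 library at a time gave 5198 to 5474 higher and 4787 to 5175 lower genes, of the lysosomal ones 11 to 16 higher and 8 to 11 lower, and 11 higher and 8 lower calls were kept in all 24 fits. The lowest of these counts, 11 higher, came without control 1.

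For the slopes, leaving out 1 model mouse at a time gave 1321 to 2033 positive and 664 to 1313 negative genes, with 8 to 14 and 0 to 3 lysosomal ones, the lowest without model 10 (664 negative genes, 8 positive and 0 negative lysosomal genes). At an adjusted p below 0.01, 458 of all genes and 0 lysosomal ones were negative. Library totals alone gave 3833 positive and 340 negative slopes, 28 and 0 of them lysosomal. Without model 10 and model 15 there were 1035 and 478, with 0 lysosomal genes negative. Kupffer cell markers gave 7 positive and 1 negative, 0 and 0 of them lysosomal, with signs changed for Ctsb (-0.02), Ctsd (-0.04), Ctsh (0.05), Hexa (-0.04), Gla (-0.05), Galns (-0.14), Lamp2 (0.02), Atp6v0d2 (-0.02) and Mitf (-0.08). Lipid-associated macrophage markers gave 15 positive and 3 negative lysosomal genes.

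The labels number the mice of both groups from 1. Deviations of same-numbered mice from their group means correlated at -0.293 to 0.0674 over pairs 1 to 6. Differently numbered mice were not compared in this way and the labels give no pairing, so whether the numbers pair mice is unknown. The replicate block on model 1 to 6 against control 1 to 6 gave 12 higher and 5 lower lysosomal genes, and the same mice without the block 12 and 7. With 6 controls and changes mostly under 1.5-fold, calls near the threshold depend on single mice, as for Ctsl and Acp2.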
